A study of Homo sapiens with 12 samples.

Results

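The genes described here are 10 regulators of the step from G1 into S phase: the transcription factors E2F1, E2F2, E2F7 and E2F8, the cyclins CCND1, CCNE1, CCNE2 and CCNA2, the CDK4 and CDK6 inhibitor CDKN2C, and the phosphatase CDC25A. They were taken by symbol from a table of 36502 genes, and all 10 were among the 17262 genes with enough counts to be tested. In a dividing cell, cyclin D with CDK4 or CDK6 and cyclin E with CDK2 phosphorylate the retinoblastoma protein, which then releases the activating factors E2F1 and E2F2. These switch on replication genes and, among others, the genes of cyclin E, cyclin A and CDC25A, the phosphatase that removes inhibitory phosphates from CDK2. E2F7 and E2F8 are atypical, repressing members of the family that are themselves induced by E2F1 and act back on the same targets. HT1080 is a human fibrosarcoma cell line.

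RNA was sequenced from 6 groups of HT1080 cells with 2 libraries each, which the study's design text calls biological replicates. The p-values measure the spread between these libraries. In fits to all 12 libraries the 6 groups share 1 estimate of the spread for each gene. A test of 2 groups in such a fit therefore also reflects the spread within the other groups. Both lines carry an m6A-Tracer, a protein that binds DNA methylated on adenine and is induced when doxycycline is withdrawn. They also carry Dam-LMNB1, the bacterial adenine methyltransferase Dam fused to lamin B1, which is stabilised by Shield1. In the VP16 line the tracer carries the VP16 activation domain (m6A-Tracer-VP16), and in the GFP line it does not (m6A-Tracer). Each line is 1 clone, so the construct and the clone cannot be told apart. In VP16_tracer_Dam and GFP_tracer_Dam, 50 ng/ml doxycycline was given for 3 days and then withdrawn for 24 hours with 500 nM Shield1. In VP16_tracer and GFP_tracer, doxycycline was withdrawn in the same way without Shield1. In VP16_uninduced and GFP_uninduced, doxycycline stayed on for 4 days. All tracer_Dam libraries and no others had Shield1, so Shield1 itself and Dam-LMNB1 cannot be told apart. Likewise, induction of the tracer and the withdrawal of doxycycline cannot be told apart. The terms tracer response and Dam response are used below with these limits. The first library of each group (numbers 1 to 6) and the second (numbers 7 to 12) carry the same 6 index sequences, and these 2 rounds are called index set 1 and index set 2.

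Library depth lay between 18774905 and 24827396 counts. The index set 1 libraries of GFP_tracer_Dam and GFP_tracer stood apart from the other 10: on the first principal component, which held 45.4% of the variance, they lay at -87.0 and -78.2, against -16.2 to 41.0. Tests of the GFP groups are given with and without them. The 13 mesenchymal markers summed to 7067 to 10802 CPM (counts scaled to library size), most of it from VIM, FN1, MMP14 and CD44, while NT5E and THY1 were below 1 CPM. VIM was at 1745 CPM in the index set 1 library of GFP_tracer_Dam and 2322 in that of GFP_tracer, against 3308 to 4206 in the other 10. Of 7 epithelial markers 4 passed the filter on low counts, with a sum over the list of 166 to 328 CPM, mostly KRT8 and KRT18. EPCAM, CDH1 and KRT19 stayed at or below 0.651 CPM, and ESRP1 was at 10.7 and 6.77 CPM in those 2 libraries, against at most 0.378 in the other 10. None of the 6 blood markers passed the filter. The part of these markers in the results was not tested. The genes are E2F1 (ENSG00000101412, chr20:32263489-32274210, GRCh37), E2F2 (ENSG00000007968, chr1:23832922-23857712), CCNE1 (ENSG00000105173, chr19:30302805-30315215), CCNE2 (ENSG00000175305, chr8:95891998-95908906), CDKN2C (ENSG00000123080, chr1:51426417-51440305) and CDC25A (ENSG00000164045, chr3:48198636-48229892), with E2F7, E2F8, CCND1 and CCNA2 placed further on. CCND1, CCNE2 and CCNA2 overlap other genes with counts (ORAOV1, INTS8 and C8orf38, and EXOSC9), and reads there could be split differently, since the strand setting of the counting was not given in the sources used here.

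Per kilobase of annotated exon, CCND1 was the most abundant of the 10 RNAs in uninduced cells, with a median of 90.8 RPKM, that is CPM divided by exon length in kilobases (78.1 to 132 over 4 libraries). CCNA2 followed at a level of 49.6 RPKM (42.2 to 54.4), then E2F1 at 31.0 (29.6 to 31.8) and E2F7 at 25.7 (23.6 to 30.9), whose ranges overlapped each other. CDKN2C had 15.3 RPKM (14.2 to 16.4) and CDC25A 12.6 (9.23 to 14.1), whose ranges did not overlap. The lowest levels were those of CCNE1 at 5.56 RPKM (4.60 to 6.56), CCNE2 at 4.48 (4.22 to 5.06), E2F8 at 4.44 (3.03 to 4.98) and E2F2 at 3.00 (2.74 to 3.31), and each of these overlapped its neighbour in the order. The ranges of CCND1, CCNA2 and E2F1 did not overlap each other. Exon lengths came from GENCODE 29 (GRCh38).

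RefSeq (GRCh38.p14) gave a window of 300 bases, 250 before and 50 after the gene's start, for 7 of the 10 genes. The windows were searched on both strands for 8 spellings of an E2F-like site, TTTCCCGC, TTTCGCGC, TTTGCCGC, TTTGGCGC, TTTCCCGG, TTTCGCGG, TTTGCCGG and TTTGGCGG, some of which can overlap, and for CCAAT. Of 35116 windows in the table, 6.19% held an E2F-like spelling and 34.6% held CCAAT. E2F1 (chr20:33686336-33686635, minus strand) held 3 E2F-like matches between 37 and 13 bases before its start, of which 2 overlap, E2F2 (chr1:23531184-23531483, minus strand) held 2 and CDC25A (chr3:48188368-48188667, minus strand) held 2. E2F7 (chr12:77065520-77065819, minus strand) held none of these spellings and 4 CCAAT matches on the opposite strand. The windows of CCNE1, CCNA2 and CDKN2C (3 windows) held none of the E2F-like spellings either. The windows with a match are shown 5′ to 3′, with that of E2F7 as an example without one. Capitals mark the E2F-like letters, of which the E2F7 window has none; a match describes the letters only.

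E2F1: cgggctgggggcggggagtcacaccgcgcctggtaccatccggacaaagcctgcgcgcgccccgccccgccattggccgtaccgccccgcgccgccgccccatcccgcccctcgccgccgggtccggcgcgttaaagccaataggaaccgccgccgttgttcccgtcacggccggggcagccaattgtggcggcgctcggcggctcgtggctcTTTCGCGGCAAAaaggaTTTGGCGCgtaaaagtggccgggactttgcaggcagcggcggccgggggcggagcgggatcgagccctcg

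E2F2: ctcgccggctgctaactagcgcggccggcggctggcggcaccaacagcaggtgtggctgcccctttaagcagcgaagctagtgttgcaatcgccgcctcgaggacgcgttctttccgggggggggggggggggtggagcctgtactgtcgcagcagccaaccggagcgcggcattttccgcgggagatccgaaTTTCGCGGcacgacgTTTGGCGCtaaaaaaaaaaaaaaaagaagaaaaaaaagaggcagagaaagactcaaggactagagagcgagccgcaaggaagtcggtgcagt

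CDC25A: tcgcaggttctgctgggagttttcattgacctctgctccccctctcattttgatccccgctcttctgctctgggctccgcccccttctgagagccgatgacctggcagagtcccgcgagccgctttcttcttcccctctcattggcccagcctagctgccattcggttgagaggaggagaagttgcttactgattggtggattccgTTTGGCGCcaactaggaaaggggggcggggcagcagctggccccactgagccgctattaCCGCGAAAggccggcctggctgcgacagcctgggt

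E2F7: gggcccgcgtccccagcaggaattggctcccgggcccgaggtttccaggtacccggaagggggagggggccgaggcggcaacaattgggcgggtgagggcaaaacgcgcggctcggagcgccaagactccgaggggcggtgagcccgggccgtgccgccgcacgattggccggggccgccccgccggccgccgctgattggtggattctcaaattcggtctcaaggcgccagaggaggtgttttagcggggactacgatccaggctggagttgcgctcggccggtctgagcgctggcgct

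In the index set 1 libraries of GFP_tracer_Dam and GFP_tracer, 8 of the 10 genes lay below all other 10 libraries, E2F7 lay above them all, and CCND1 lay within their range. Over all genes tested, 21.3% lay below and 22.3% above in the same way, so such separation was common in these libraries. The 8 low genes were E2F1, E2F2, E2F8, CCNE1, CCNE2, CCNA2, CDC25A and CDKN2C. For E2F1 the separation of GFP_tracer lay within counting error. It had 45.2 CPM there (exact Poisson 95% interval 42.4 to 48.3), against 45.9 (43.3 to 48.7) in the index set 1 library of VP16_tracer_Dam.

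Among the activators, E2F1 had 23.7 and 70.6 CPM in GFP_tracer_Dam (index sets 1 and 2), 45.2 and 85.5 in GFP_tracer, and 76.7 and 78.6 in GFP_uninduced. Its index set 1 values were low with induction, while index set 2 stayed near the uninduced level. E2F2 had 1.34 and 14.5 CPM in GFP_tracer_Dam, 2.85 and 16.5 in GFP_tracer, and 14.2 and 14.3 in GFP_uninduced. The lowest of these rests on 33 counts, with an exact Poisson 95% interval of 0.925 to 1.89 CPM, which covers counting error only. E2F2 thus lay 10.6-fold higher in the uninduced than in the tracer_Dam library of index set 1. Fewer cells in a phase of the cycle and less RNA per cell cannot be told apart in such bulk samples.

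The repressors parted from each other. E2F7 had 376 and 150 CPM in GFP_tracer_Dam, 357 and 141 in GFP_tracer, and 135 and 135 in GFP_uninduced. It was the only one of the 10 genes above the other libraries, at 2.78 and 2.64 times the uninduced library of the same index set. E2F8 had 3.46 and 22.8 CPM in GFP_tracer_Dam, 3.68 and 20.4 in GFP_tracer, and 17.8 and 19.6 in GFP_uninduced, so it was low where E2F7 was high. The ratio of E2F7 to E2F1 counts was 15.9 in the index set 1 library of GFP_tracer_Dam and 7.89 in that of GFP_tracer, against 1.65 to 3.80 in the other 10 libraries.

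**Figure D1:**
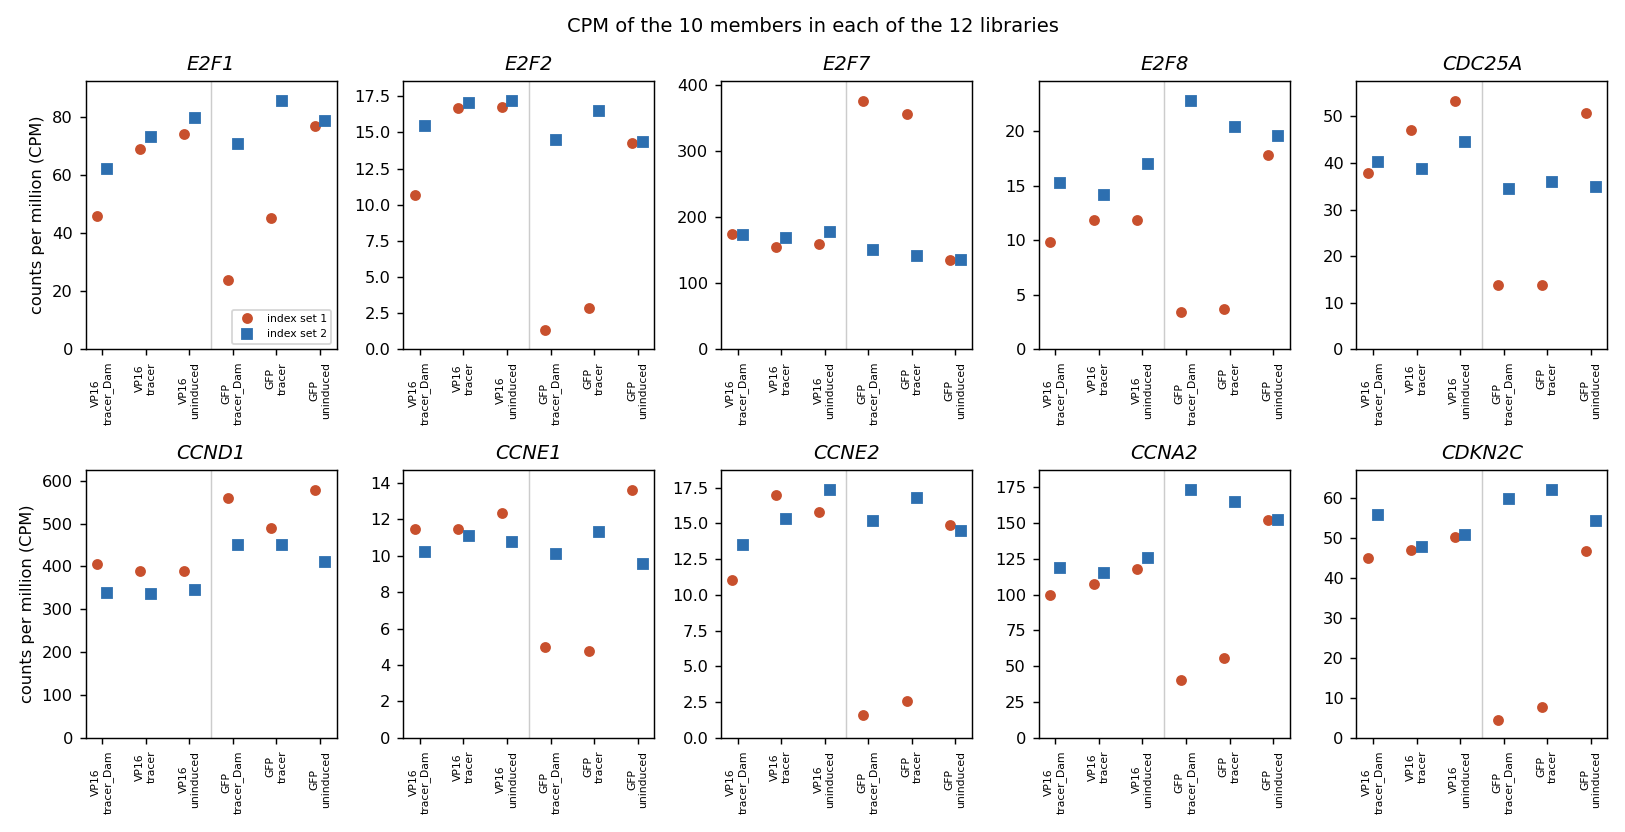
CPM (y axis, from 0) of each of the 10 genes in the 12 libraries, by group (x axis), with circles for index set 1 and squares for index set 2. The index set 1 circles of GFP_tracer_Dam and GFP_tracer are low for 8 genes, high for E2F7 (376 and 357 CPM) and within the range of the others for CCND1.

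Cyclin D1, the cyclin that responds to growth signals and starts the sequence, behaved unlike the cyclins that follow it. CCND1 had 561 and 451 CPM in GFP_tracer_Dam, 490 and 450 in GFP_tracer, and 579 and 411 in GFP_uninduced. CCNE1 had 5.01 and 10.1 CPM in GFP_tracer_Dam, 4.76 and 11.3 in GFP_tracer, and 13.6 and 9.56 in GFP_uninduced. CCNE2 had 1.63 and 15.2 CPM in GFP_tracer_Dam, 2.55 and 16.8 in GFP_tracer, and 14.9 and 14.5 in GFP_uninduced. The paralogs of cyclin E were therefore unequal in index set 1: CCNE2 lay 9.16-fold and 5.84-fold higher in the uninduced library than in the tracer_Dam and tracer libraries, and CCNE1 2.72-fold and 2.86-fold. CCNA2, the cyclin of S phase, had 40.6 and 173 CPM in GFP_tracer_Dam, 55.8 and 165 in GFP_tracer, and 152 and 152 in GFP_uninduced. CDC25A had 13.8 and 34.4 CPM in GFP_tracer_Dam, 13.8 and 36.0 in GFP_tracer, and 50.8 and 34.9 in GFP_uninduced.

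CDKN2C, which encodes the CDK4 and CDK6 inhibitor p18, had the widest range of the 10 genes over the 12 libraries, 14.2-fold. It had 4.40 and 59.8 CPM in GFP_tracer_Dam, 7.80 and 62.2 in GFP_tracer, and 47.0 and 54.3 in GFP_uninduced. It was low in the same 2 libraries as the cyclins E and A. Without the 2 libraries its range was 1.38-fold, and 9 of the 10 genes then ranged by at most 2-fold, E2F8 being the exception at 2.32-fold.

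Several other genes of the cycle were low in the same libraries, and summed markers of stress were high. The summed level of 25 replication genes regulated by E2F was 1089 CPM in the index set 1 library of GFP_tracer_Dam and 1718 in that of GFP_tracer, against 2640 to 3728 in the other 10. SKP2, the F-box protein that targets CDK inhibitors for degradation, had 6.76 CPM in that library of GFP_tracer_Dam and 8.64 in that of GFP_tracer, against 60.2 to 93.3 elsewhere. CDK2 had 25.1 and 36.1 CPM in these 2 libraries, in the same order, against 53.5 to 63.5. Not every cycle gene was low there. CDK6 had 350 and 359 CPM, against 161 to 267, and E2F4 160 and 164, against 128 to 149. CDK4, at 144 and 155 CPM, lay within the range of the other libraries, 134 to 159. MYC had 158 and 222 CPM there, against 37.8 to 80.6. The sum of 14 genes of the integrated stress response (such as ATF4, DDIT3 and TRIB3) was 3335 and 3311 CPM, against 694 to 1062 elsewhere, and that of 10 p53 target genes 2508 and 2052 CPM, against 568 to 1044. GDF15 alone made up 1603 and 1248 CPM of the p53 target sum, against 71.0 to 347 elsewhere, while ZMAT3 (148 and 128 CPM, against 82.3 to 182) lay within the range of the other libraries. The part of the stress, p53 and mitogen-driven genes in the levels of the 10 genes was not tested.

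**Figure D2:**
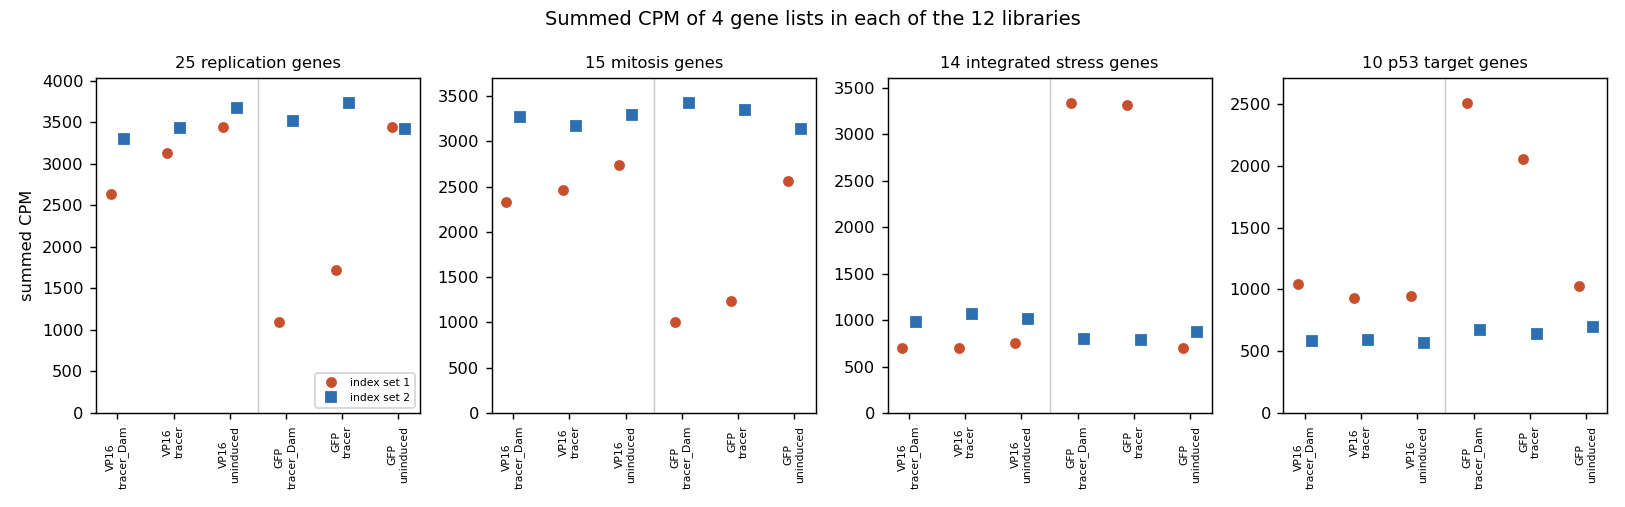
Summed CPM (y axis, from 0) of 25 replication genes, 15 mitosis genes, 14 integrated stress genes and 10 p53 target genes in each library, by group (x axis) and index set (circles, squares). Stress genes reach 3335 and 3311 CPM in the index set 1 libraries of GFP_tracer_Dam and GFP_tracer, where replication genes are at 1089 and 1718 CPM, and p53 target genes are higher in index set 1 than in index set 2 in every group.

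Across all 12 libraries edgeR's quasi-likelihood test called none of the 17262 genes (0%) for GFP_tracer against GFP_uninduced at a Benjamini-Hochberg adjusted p under 0.05; 125 had an unadjusted p under 0.05, and DESeq2 called 0. The median log2 change of the 10 genes was -0.53, against 0.01 over all genes, and it was -1.69 within index set 1 and 0.13 within index set 2. E2F7 had the largest value, a log2 change of 0.88 ± 0.46 (SE, n = 2 libraries each; edgeR adjusted p = 0.999). CDC25A had -0.78 ± 0.49, CCNE1 -0.53 ± 0.42 and CCNA2 -0.46 ± 0.62, each with an edgeR adjusted p of 0.999, and the other 6 lay between -0.63 and -0.08. Without the 2 libraries and with index set as a block, 1 gene was called (0.0057% of 17558), none of the 10, and E2F7 stood at 0.03 ± 0.07, CDC25A at -0.11 ± 0.16, CCNE1 at 0.10 ± 0.16 and CCNA2 at 0.06 ± 0.07 (edgeR adjusted p = 1.00 each). Leaving out only the index set 1 library of GFP_tracer put E2F7 at 0.06 and CDC25A at -0.25.

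For GFP_tracer_Dam against GFP_uninduced the median log2 change was -0.64, against 0.01 over all genes, with -1.89 within index set 1 and 0.10 within index set 2. No gene was called (0% of 17262; 228 with an unadjusted p under 0.05; 0 by DESeq2). E2F7 had a log2 change of 0.96 ± 0.46, CDC25A -0.83 ± 0.49, E2F1 -0.72 ± 0.46 and CCNE1 -0.62 ± 0.42, each with an edgeR adjusted p of 0.926, and the others lay between -0.86 and 0.03. Leaving out only the index set 1 library of GFP_tracer_Dam put E2F7 at 0.16, CDC25A at -0.31, E2F1 at -0.13 and CCNE1 at -0.19. Without the 2 libraries that stood apart and with the block, no gene was called (0% of 17558; 587 with an unadjusted p under 0.05), and E2F7 stood at 0.12 ± 0.07, CDC25A at -0.17 ± 0.16, E2F1 at -0.21 ± 0.10 and CCNE1 at -0.06 ± 0.16 (edgeR adjusted p = 0.999 each). The 2 comparisons with GFP_uninduced share those control libraries.

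**Figure D3:**
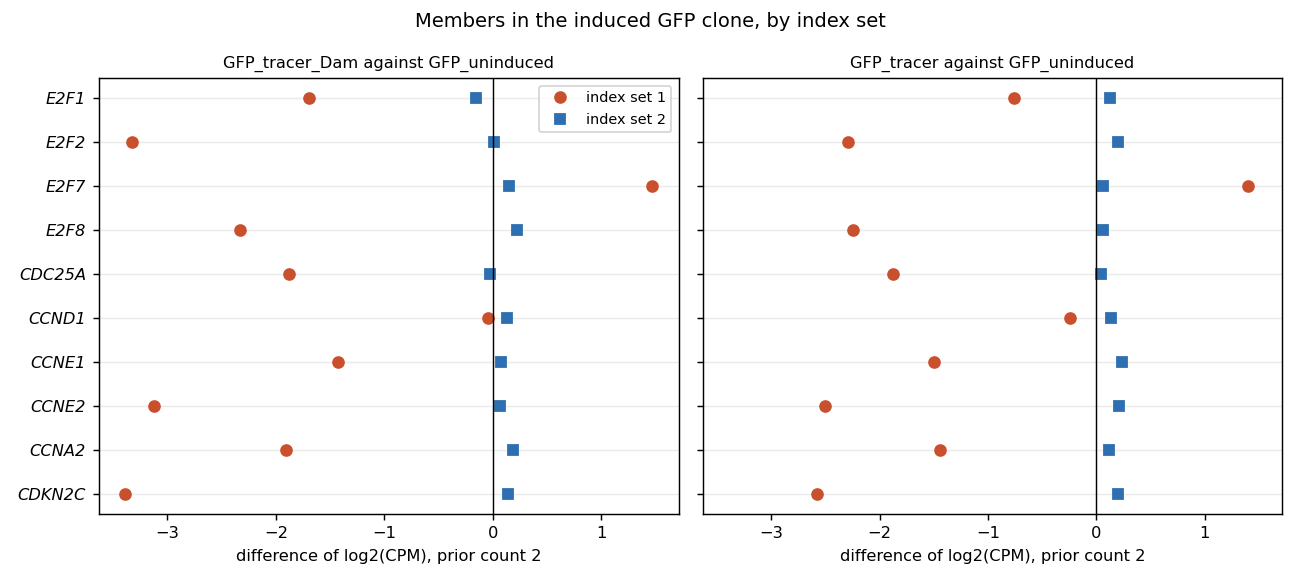
Difference in log2 CPM (x axis, prior count 2) of each of the 10 genes (y axis) in GFP_tracer_Dam (left) and GFP_tracer (right) against GFP_uninduced, within index set 1 (circles) and index set 2 (squares). Index set 2 values lie between -0.16 and 0.24, while index set 1 values reach -3.39 for CDKN2C and 1.47 for E2F7.

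Adding Shield1, which stabilises Dam-LMNB1, on top of the tracer was compared within each clone and index set. The index set 1 pair of the GFP clone is made of the 2 libraries that stood apart. E2F1, E2F2 and CCNE2 were lower in tracer_Dam than in tracer in all 4 pairs of libraries, 2 index sets in each of 2 clones, and E2F7 and CCND1 were higher in all 4. Over all genes tested, 9.76% were lower and 9.99% higher in all 4 pairs. For E2F1 the log2 differences were -0.58 and -0.24 in the VP16 clone and -0.93 and -0.28 in the GFP clone (index sets 1 and 2). The 17262 genes were also ordered by the smallest fall of the 4 pairs, without a test. E2F1 stood at place 69, CCNE2 at 160 and E2F2 at 169. The rest of the 10 genes stood between 3983 (CDC25A) and 10361 (CDKN2C). This order takes in the pair made of the 2 libraries that stood apart. E2F2 differed by -0.64 and -0.14 in the VP16 clone and by -1.03 and -0.19 in the GFP clone. CCNE2 differed by -0.62 and -0.18 in the VP16 clone and by -0.62 and -0.15 in the GFP clone. Exact Poisson 95% intervals, which cover counting error only, did not overlap between tracer_Dam and tracer for E2F1 in any pair. For E2F2 they overlapped in index set 2 of both clones. For CCNE2 they overlapped in every pair except index set 1 of the VP16 clone. In index set 1 of the GFP clone CCNE2 had 40 counts in tracer_Dam and 52 in tracer. The differences of E2F7 were small, from 0.04 to 0.17, and those of CCND1 lay between 0.00 and 0.19. CCNE1 was lower in 2 of the 4 pairs only, as were E2F8 and CCNA2.

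Of the 25 E2F target genes of replication, 14 were lower in all 4 pairs and none was higher in all 4. They include the 6 subunits of the replicative helicase, MCM2 to MCM7. MCM6 differed by -0.47 and -0.24 in the VP16 clone and by -0.70 and -0.20 in the GFP clone. Of 9 further genes of the RB and E2F families, E2F3 and E2F4 were lower in all 4 pairs, and of 12 regulators of the SCF, APC and DREAM complexes, MYBL2, RBBP4 and SKP2 were. Of 15 mitosis genes, 2 were lower in all 4 pairs, CDC20 and CENPE. Of 9 other cyclins, CDKs and CDC25 genes CDK4 was lower in all 4, and of 4 CDK inhibitors CDKN3 was lower and 2 were higher. Among 10 mitogen-driven genes MYC, JUN and SPRY4 were lower and 1 was higher. ATF4 and TRIB3, of 14 integrated stress genes, were lower, and 3 of 10 p53 targets were higher. The shares over all genes tested were 9.76% lower and 9.99% higher in all 4 pairs.

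**Figure D4:**
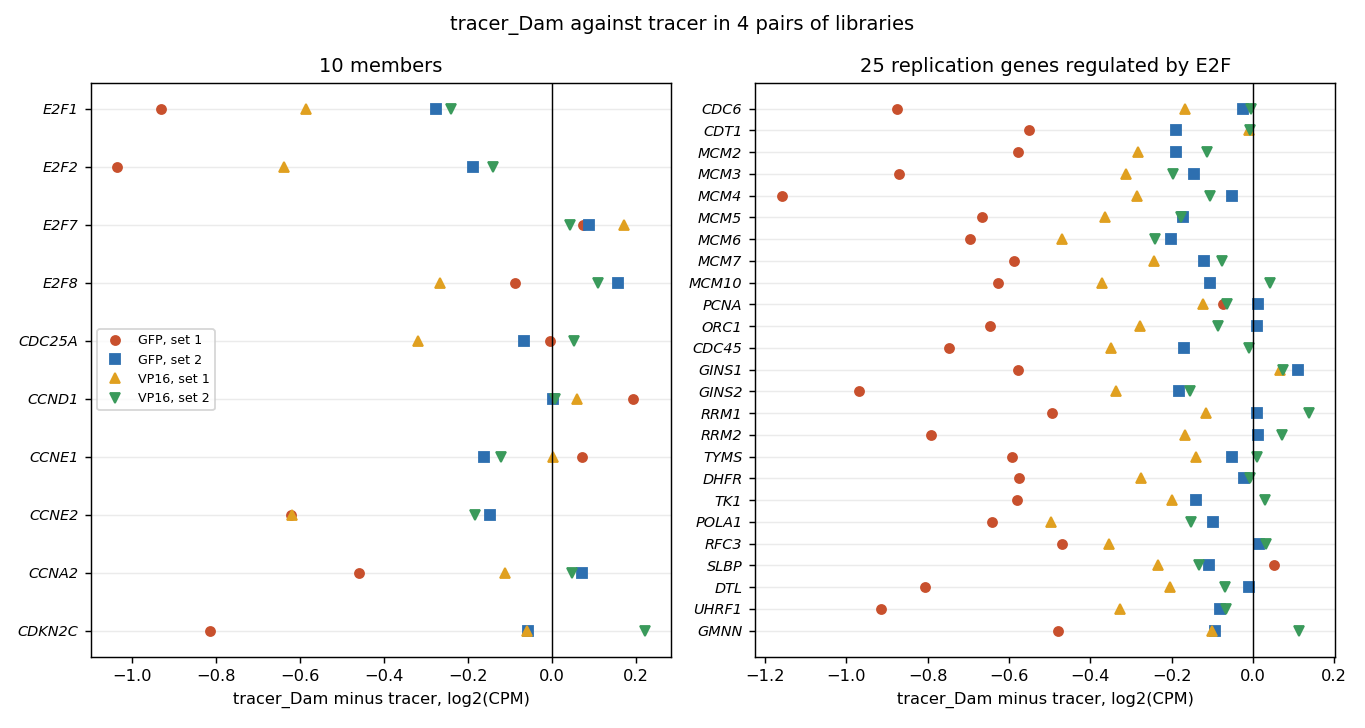
Difference in log2 CPM between tracer_Dam and tracer (x axis) in 4 pairs of libraries (clone and index set, by symbol) for the 10 genes (left) and 25 replication genes (right). All 4 symbols lie left of 0 for E2F1, E2F2 and CCNE2 and for 14 of the 25 replication genes, and for E2F1, E2F2 and CCNE2 the index set 1 symbols lie farther left than those of index set 2.

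With all 12 libraries and no block, no gene was called for VP16_tracer_Dam against VP16_tracer (0% of 17262; 53 with an unadjusted p under 0.05; 0 by DESeq2) or for GFP_tracer_Dam against GFP_tracer (0%; 80; 0 by DESeq2). E2F1 had a log2 change of -0.40 ± 0.45 in the VP16 clone and -0.47 ± 0.45 in the GFP clone, both with an edgeR adjusted p of 1.00. Both SE values come from the spread over all 12 libraries, those that stood apart included. Without the 2 libraries that stood apart and with the block, 1 gene was called in each clone (0.0057% of 17558), none of the 10, and E2F1 in the GFP clone stood at -0.28 ± 0.11 (edgeR adjusted p = 1.00). In the VP16 clone alone, with index set as a block, 0.0806% of 16139 genes were called and E2F1 was the 1 gene of the 10 among them, with a fall of 0.41 ± 0.07 on the log2 scale (edgeR adjusted p = 0.0267). CCNE2 stood at -0.40 ± 0.10 (edgeR adjusted p = 0.147) and E2F2 at -0.38 ± 0.11 (edgeR adjusted p = 0.221) in that fit. Without the index set 1 library of VP16_tracer the E2F1 value was -0.32 (edgeR adjusted p = 0.153), and without that of VP16_tracer_Dam -0.25 (edgeR adjusted p = 0.220). Over the 26 fits of this comparison the adjusted p of E2F1 ran from 6.35e-14 to 1.00. The difference between the clones in the Dam response of E2F1 was 0.08 ± 0.64 (log2, VP16 minus GFP; edgeR adjusted p = 1.00). No gene was called for a clone difference in the tracer, Dam or combined response (0%; 94, 50 and 104 with an unadjusted p under 0.05; 0 by DESeq2).

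In the VP16 clone, the tracer alone was compared with uninduced cells. E2F1 had 69.0 and 73.2 CPM in VP16_tracer (index sets 1 and 2), against 74.1 and 79.7 in VP16_uninduced. CDC25A had 47.2 and 38.8 CPM in VP16_tracer, against 53.3 and 44.4 in VP16_uninduced. CCNA2 had 107 and 115 CPM in VP16_tracer, against 118 and 126 in VP16_uninduced. Each of the 3 was lower within both index sets, as were 7 of the 10 genes, while 31.1% of all genes tested were lower in both. No gene was called for VP16_tracer against VP16_uninduced (0% of 17262; 72 with an unadjusted p under 0.05; 0 by DESeq2). The log2 changes were -0.19 ± 0.49 for CDC25A, -0.11 ± 0.45 for E2F1, -0.13 ± 0.62 for CCNA2 and -0.16 ± 0.86 for E2F8, each with an edgeR adjusted p of 1.00. In the VP16 clone alone with the index set block, 0.861% of 16139 genes were called (0.793% higher, 0.0682% lower) and none of the 10. Without the 2 libraries that stood apart and with the block, 1 gene was called (0.0057%).

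With tracer and Dam-LMNB1 together, both activators, CCNE2 and CDC25A had lower levels than in uninduced VP16 cells. E2F1 had 45.9 and 62.0 CPM in VP16_tracer_Dam, against 74.1 and 79.7 in VP16_uninduced, without overlap. E2F2 had 10.7 and 15.5 CPM in VP16_tracer_Dam, against 16.8 and 17.2 in VP16_uninduced. CCNE2 had 11.0 and 13.5 CPM in VP16_tracer_Dam, against 15.8 and 17.4 in VP16_uninduced. CDC25A had 37.8 and 40.3 CPM in VP16_tracer_Dam, against 53.3 and 44.4 in VP16_uninduced. These 4 genes were those of the 10 whose groups did not overlap on the low side, and 15.4% of all genes tested did likewise; none of the 10 did on the high side.

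Levels of the remaining genes in the VP16 clone complete the series. E2F7 had 175 and 173 CPM in VP16_tracer_Dam and 155 and 168 in VP16_tracer, against 160 and 178 in VP16_uninduced. E2F8 had 9.83 and 15.3 CPM in VP16_tracer_Dam and 11.8 and 14.1 in VP16_tracer, against 11.9 and 17.0 in VP16_uninduced. CCND1 had 406 and 337 CPM in VP16_tracer_Dam and 390 and 335 in VP16_tracer, against 389 and 344 in VP16_uninduced. The groups overlapped for these 3 genes in both comparisons with VP16_uninduced, and E2F8 was lower and CCND1 higher in index set 1 of every group. CCNE1 had 11.5 and 10.2 CPM in VP16_tracer_Dam and 11.5 and 11.1 in VP16_tracer, against 12.3 and 10.8 in VP16_uninduced. CDKN2C had 45.1 and 55.8 CPM in VP16_tracer_Dam and 47.0 and 47.8 in VP16_tracer, against 50.3 and 50.9 in VP16_uninduced. CDKN2C thus lay between 45.1 and 55.8 CPM in all 6 VP16 libraries. In VP16_tracer, E2F2 had 16.7 and 17.0 CPM and CCNE2 17.0 and 15.3 CPM, and CCNA2 had 99.4 and 119 CPM in VP16_tracer_Dam.

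Fitted to all 12 libraries, VP16_tracer_Dam against VP16_uninduced called no gene (0% of 17262; 189 with an unadjusted p under 0.05; 0 by DESeq2), with log2 changes of -0.51 ± 0.45 for E2F1, -0.32 ± 0.49 for CDC25A, -0.44 ± 0.92 for CCNE2 and -0.38 ± 0.93 for E2F2 (edgeR adjusted p = 1.00 each). Fitted to the VP16 clone alone with the index set block, 9.75% of 16139 genes were called, 4.17% as lower, and 5 of the 10 genes fell. E2F1 fell by 0.51 ± 0.07 on the log2 scale (edgeR adjusted p = 2.64e-04). CCNE2 fell by 0.44 ± 0.10 (edgeR adjusted p = 0.00921) and E2F2 by 0.38 ± 0.11 (edgeR adjusted p = 0.0335). CDC25A fell by 0.31 ± 0.08 (edgeR adjusted p = 0.0148) and CCNA2 by 0.16 ± 0.05 (edgeR adjusted p = 0.0455). E2F8 stood at -0.21 ± 0.10 (edgeR adjusted p = 0.225), and E2F7, CCND1, CCNE1 and CDKN2C were not called.

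Leaving a VP16 library out of the fit of the VP16 clone alone leaves 1 library in its group, so calls in such fits carry little weight. E2F1 kept its call when each of the 6 VP16 libraries was left out of that fit, with log2 changes from -0.69 to -0.36. Without the index set 1 library of VP16_tracer_Dam the other 4 lost theirs, CCNE2 at -0.30 (edgeR adjusted p = 0.192), E2F2 at -0.15 (0.612), CDC25A at -0.14 (0.451) and CCNA2 at -0.08 (0.554), and the genes called numbered 375 in place of 1573. CCNA2 also lost its call without either VP16_tracer library (edgeR adjusted p = 0.0536 and 0.0810). Without the index set 1 library of VP16_uninduced, E2F2 stood at -0.27 (0.326), CDC25A at -0.24 (0.164) and CCNA2 at -0.12 (0.474), with 277 genes called. Fitted to all libraries but the 2 that stood apart, with the block, 0.319% of 17558 genes were called and E2F1 was the 1 gene of the 10 among them, with a fall of 0.52 ± 0.08 (edgeR adjusted p = 0.0286). Over the 26 fits the adjusted p of E2F1 ran from 4.88e-20 to 1.00, that of CCNE2 from 3.36e-05, of E2F2 from 4.85e-06, of CDC25A from 1.53e-08 and of CCNA2 from 8.69e-04, each to 1.00.

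In the fit of the VP16 clone alone, where 4.17% of all genes fell and 5.58% rose, 18 of the 25 replication genes fell and none rose, with a median log2 change of -0.23 against 0.01 over all genes. MCM3 fell by 0.38 ± 0.05 and MCM5 by 0.41 ± 0.05 (edgeR adjusted p = 2.48e-05 each). Of 15 mitosis genes 4 fell, among them CDC20, which activates the anaphase-promoting complex, by 0.31 ± 0.05 (edgeR adjusted p = 3.61e-04). Of 9 genes of the RB and E2F families 1 fell, E2F4, by 0.19 ± 0.04 (edgeR adjusted p = 0.00753). Of the 4 CDK inhibitors tested, CDKN1A, which encodes p21, rose by 0.16 ± 0.04 (edgeR adjusted p = 0.0234) and CDKN3 fell by 0.30 ± 0.07 (edgeR adjusted p = 0.00846). SKP2, at -0.22 ± 0.05 (edgeR adjusted p = 0.0106), was the 1 of 12 SCF, APC and DREAM genes that fell. Of 9 other cyclins, CDKs and CDC25 genes 1 fell, CDK4, by 0.17 ± 0.05 (edgeR adjusted p = 0.0182). MYC fell by 0.42 ± 0.06 (edgeR adjusted p = 2.28e-04), 1 of 3 among 10 mitogen-driven genes that did. Of 10 p53 targets 2 rose, TP53INP1 by 0.36 ± 0.07 and TP53I3 by 0.39 ± 0.07 (edgeR adjusted p = 0.00152 and 0.00172). Of 14 integrated stress genes, 2 rose and 1 fell. With all 12 libraries no gene of these lists was called, with or without the block. With the block and the 2 libraries that stood apart left out, 4 of the 25 replication genes fell and no gene of the other lists named here was called. As given above, the calls of the VP16 clone alone numbered 375 in place of 1573 without the index set 1 library of VP16_tracer_Dam.

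Between the clones, cyclin D1 was lower in the VP16 line in every condition. CCND1 had a lowest, median and highest level of 335, 367 and 406 CPM over the 6 VP16 libraries, against 411, 471 and 579 CPM over the 6 GFP libraries, so the clones did not overlap, which held for 6.08% of all genes tested in that direction. In uninduced cells, CCND1 had 389 and 344 CPM in VP16_uninduced, against 579 and 411 in GFP_uninduced. CCNA2 had 118 and 126 CPM in VP16_uninduced, against 152 and 152 in GFP_uninduced. E2F8 had 11.9 and 17.0 CPM in VP16_uninduced, against 17.8 and 19.6 in GFP_uninduced. E2F7 was higher, with 160 and 178 CPM in VP16_uninduced, against 135 and 135 in GFP_uninduced. E2F2 was also higher without overlap, at 16.8 and 17.2 CPM against 14.2 and 14.3. So was CCNE2, at 15.8 and 17.4 CPM against 14.9 and 14.5. Over all genes tested, 22.2% were higher and 19.7% lower without overlap.

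With all 12 libraries 0.278% of 17262 genes were called for VP16_uninduced against GFP_uninduced, and none of the 10. CCND1 had a log2 change of -0.43 ± 0.19 (edgeR adjusted p = 0.677), E2F7 0.32 ± 0.46, CCNA2 -0.32 ± 0.62 and E2F8 -0.37 ± 0.85 (edgeR adjusted p = 1.00 each), and the others lay between -0.01 and 0.25. With the index set block the count was 1.89%, and CCND1 stood at -0.42 ± 0.10 (edgeR adjusted p = 0.0798). Without the 2 libraries that stood apart, and with the block, 21% of 17558 genes were called, 12% as lower, and 4 of the 10 among them. CCND1 fell by 0.43 ± 0.07 (edgeR adjusted p = 7.20e-04), CCNA2 by 0.34 ± 0.06 (edgeR adjusted p = 0.00112) and E2F8 by 0.39 ± 0.12 (edgeR adjusted p = 0.0292), while E2F7 rose by 0.30 ± 0.06 (edgeR adjusted p = 0.00155). That was the 1 fit of 18 in which any of these 4 was called, and in the others their adjusted p reached 1.00.

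The 4 genes called in 1 fit between the uninduced clones lie on chromosomes whose genes differed in the same direction. This was looked at after the values were seen. CCND1 (ENSG00000110092, chr11:69455855-69469242) and E2F8 (ENSG00000129173, chr11:19245610-19263389, GRCh37) are on chromosome 11, where the median log2 difference of VP16_uninduced against GFP_uninduced was -0.32 and 87.8% of 976 genes were below 0. CCNA2 (ENSG00000145386, chr4:122737599-122745087) is on chromosome 4, with a median of -0.30 and 84.1% of 621 genes below 0. Chromosome 15 had a median of -0.25 over 597 genes, and the other 20 chromosomes had medians from -0.09 to 0.16. The highest was that of chromosome 12, which carries E2F7 (ENSG00000165891, chr12:77415027-77459360). Set against its chromosome's median, the difference was -0.11 for CCND1, -0.05 for E2F8, -0.02 for CCNA2 and 0.15 for E2F7. Of the genes not called, E2F2 (0.25) and CCNE2 (0.17) had the direction of their chromosome's median (0.12 and 0.08). CDC25A, at 0.19, had the opposite direction to chromosome 3, with a median of -0.09. E2F1 (-0.014), CCNE1 (-0.0059) and CDKN2C (-0.00056) lay just below 0 on chromosomes with medians of 0.07, 0.05 and 0.12. The chromosome 11 median was -0.30 within index set 1 and -0.33 within index set 2. The part of these chromosome-wide differences in the levels of the 4 genes was not tested.

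**Figure D5:**
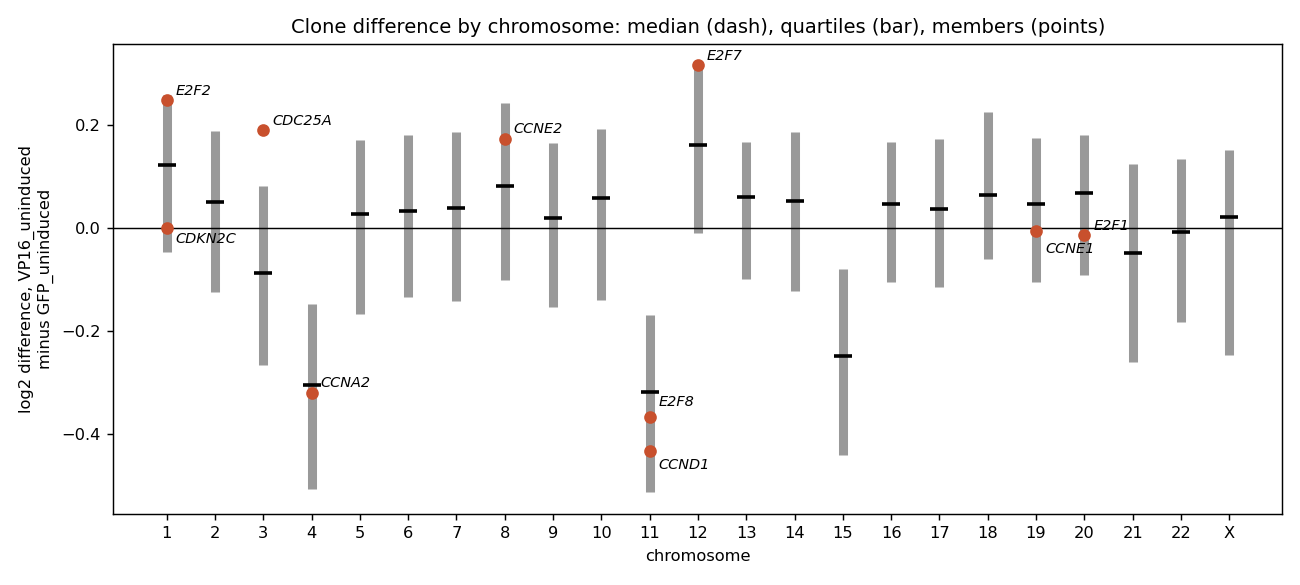
Log2 difference of VP16_uninduced minus GFP_uninduced (y axis) by chromosome (x axis): dashes are medians over genes, bars run between the quartiles over genes, and labelled points the 10 genes described. Chromosomes 4, 11 and 15 lie lowest, with medians of -0.30, -0.32 and -0.25, and CCNA2, CCND1 and E2F8 lie on 2 of them.

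The index sets also differed apart from the 2 libraries. E2F1, E2F2, E2F8 and CDKN2C were lower in index set 1 than in index set 2 in all 6 groups, as were 16.5% of all genes tested, and CCND1 was higher in all 6, as were 17.8%. The 6 groups include GFP_tracer_Dam and GFP_tracer, whose log2 differences were -1.57 and -0.92 for E2F1, against -0.43 to -0.04 in the other 4 groups. They were -3.34 and -2.50 for E2F2, against -0.53 to -0.01, and -3.74 and -2.98 for CDKN2C, against -0.31 to -0.02. E2F8 had -2.69 and -2.44, against -0.63 to -0.14. Outside those 2 groups the falls were thus much smaller. With the block fit on all 12 libraries 28.2% of 17262 genes were called between index sets, and CCND1 was the 1 gene of the 10 among them, with a rise of 0.27 ± 0.06 (log2, index set 1 against index set 2; edgeR adjusted p = 0.0114). E2F8 stood at -1.06 ± 0.38 (edgeR adjusted p = 0.0728), E2F1 at -0.52 ± 0.20 (0.0928) and CCNA2 at -0.66 ± 0.30 (0.135), and the others lay between -1.07 and 0.39.

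In the 8 libraries of the other 4 groups, 40.9% of 16553 genes were called, 20.7% higher and 20.2% lower, and 4 of the 10 among them. CCND1 rose by 0.29 ± 0.05 (edgeR adjusted p = 5.11e-04), CCNE1 by 0.24 ± 0.09 (edgeR adjusted p = 0.0409) and CDC25A by 0.25 ± 0.09 (edgeR adjusted p = 0.0470), while E2F8 fell by 0.37 ± 0.09 (edgeR adjusted p = 0.00384). CDKN1A, the inhibitor of cyclin and CDK complexes induced by p53, had 415 to 511 CPM in the 6 index set 1 libraries, against 150 to 177 CPM in the 6 of index set 2. All 10 p53 targets rose in index set 1 in these 8 libraries, and of 15 mitosis genes 10 fell. Over the 20 fits the adjusted p of E2F8 ran from 7.56e-05 to 0.271, of CCNE1 from 0.0409 to 0.986 and of CDC25A from 0.0470 to 0.906. That of CCND1 ran from 6.00e-06 to 0.136, and its call was lost in the fit of the GFP clone alone (0.136) and without either VP16_tracer_Dam library (0.0511 and 0.0502). The part of the p53 targets in these differences was not tested.

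The 10 genes did not follow one another equally. Over the 12 libraries the 8 genes other than E2F7 and CCND1 had pairwise Pearson correlations of log2 CPM from 0.77 to 0.99, with a median of 0.92. These 8 are the genes low in the 2 libraries that stood apart, so high values over the 12 libraries follow from that choice. Over the 10 libraries without the 2 that stood apart, the median was 0.29 and the range -0.56 to 0.94. E2F7 had correlations with the 8 genes from -0.96 to -0.86 over the 12 libraries and from -0.74 to 0.09 over the 10. The genes whose level was most like that of E2F1 over the 12 libraries, among 10927 with a mean of at least 5 CPM, were MCM3, GINS2, HNRNPL, GBE1, CHSY3, HELLS, JPH1 and UNG, with r from 0.97 to 0.99. Of these, HELLS and HNRNPL were also among the 8 most like it over the 10 libraries. Those most like CCND1 were SLC39A13, CD276, LCP1, CTTN, STX3, CTSD, GDPD5 and TMEM9B, with r from 0.95 to 0.98, and 5 of the 8 remained over the 10 libraries. Of those 8, 6 lie on chromosome 11, which holds 5.73% of the genes ranked, and none of the 8 most like E2F1 does. The points share library, depth and index set.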

How the data were processed

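RNA-seq counts per gene were analysed for 12 HT1080 libraries, 6 groups of 2. The values are raw counts deposited by the authors for 36502 Ensembl genes on GRCh37; the processing notes of the submitters name TopHat 1.4.0, Bowtie 0.12.7 and HTSeq, whose version, mode and strand setting were not given in the sources used here. Genes were filtered with filterByExpr and tested with edgeR 4.0.16 (TMM, robust quasi-likelihood, all 12 libraries, no block; R 4.3.3, limma 3.58.1), with Benjamini-Hochberg adjustment over all genes at 0.05. SE is the absolute log2 change divided by the square root of F, and 2 was the prior count for CPM on the log2 scale. DESeq2 1.42.0 was an alternative. The fitting code was also run on simulated data with changes in VP16_tracer_Dam against VP16_tracer only. The simulated spread was set below the median estimated from the libraries, so that run does not show how the fits perform on these data. Deviations from group means correlated between libraries of the same index set (15 pairs, r from 0.415 to 0.858), so index sets pair the libraries. No 2 libraries of a group agreed within sampling noise (chi-square per degree of freedom 20.4 to 136). The value was 136 in GFP_tracer_Dam and 86.8 in GFP_tracer, against 20.4 to 29.1 in the other groups. In each comparison the 4 of the 10 genes with the smallest p, any called, and up to 2 genes of each list were named with their tests. The genes and lists were chosen with earlier results of these data known. CDKN2A and CDKN2B, on the list of 7 CDK inhibitors, were not found by symbol among the genes read here, so they were not analysed. CDKN1C, also on that list, did not pass the filter on low counts.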

Additional observations from a re-analysis of the deposited data

Results flagged for a closer look

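E2F7 had opposite signs in the clones under the tracer: both VP16 index sets moved down, by -0.04 and -0.08 on the log2 scale, and both GFP index sets moved up, by 1.398 and 0.06. The order within each clone is index set 1 and then index set 2, and the fitted difference (VP16 minus GFP) was -0.94 ± 0.65 (SE; edgeR adjusted p = 1.00). Without the index set 1 library of GFP_tracer it was -0.13, and without both libraries that stood apart, with the replicate block, -0.09 ± 0.09 (edgeR adjusted p = 0.999). Beyond that interaction term the difference was not tested.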

How the results depend on the processing

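Index set entered as a replicate block with all 12 libraries kept called none of the 10 genes in any comparison within or between the clones, and gave 327 genes for VP16_uninduced against GFP_uninduced, in place of 48; DESeq2 gave 297 and no filter on low counts 220. With the VP16 clone alone and the block, VP16_tracer against VP16_uninduced gave 139 genes, VP16_tracer_Dam against VP16_tracer 13 and VP16_tracer_Dam against VP16_uninduced 1573, in place of 0. Without the 2 libraries that stood apart and with the block, GFP_tracer against GFP_uninduced, GFP_tracer_Dam against GFP_tracer, VP16_tracer against VP16_uninduced, VP16_tracer_Dam against VP16_tracer and the clone difference in the Dam response gave 1 gene each, VP16_tracer_Dam against VP16_uninduced 56 and VP16_uninduced against GFP_uninduced 3685. In that fit CCNE1 stood at 0.097 and CCNA2 at 0.065 for GFP_tracer against GFP_uninduced. The clone difference in the tracer response was -0.072 for CDC25A, -0.12 for CCNE1 and -0.20 for CCNE2, that in the Dam response had a median of -0.088 and was 0.024 for CCND1, and that in the combined response was -0.025 for CCNE1, -0.14 for CDC25A and -0.18 for CDKN2C. The median likeness was 0.938 to E2F1 and 0.972 to CCND1. Between index sets the GFP clone alone gave 892 genes and the VP16 clone alone 7025, in place of 4869. The cause of these changes was not tested.

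Leaving out 1 library at a time, which assumes that a lone library varies like the others, moved the GFP_tracer against GFP_uninduced count from 0 to 1, E2F7 from 0.062 to 1.37, CDC25A from -1.66 to -0.25 and CCNA2 from -1.47 to 0.12. For GFP_tracer_Dam against GFP_uninduced E2F7 ran from 0.16 to 1.44, CDC25A from -1.67 to -0.31, E2F1 from -1.74 to -0.13 and CCNE1 from -1.24 to -0.19. For GFP_tracer_Dam against GFP_tracer the count ran from 0 to 1, the median from -1.48 to 0.90, E2F1 from -1.49 to 0.12, CCND1 from -0.040 to 0.24, E2F2 from -2.88 to 1.502 and CCNE2 from -2.60 to 1.75. For VP16_tracer against VP16_uninduced the count stayed at 0, and the median ran from -0.11 to -0.071 and E2F8 from -0.39 to 0.13. For VP16_tracer_Dam against VP16_tracer the count stayed at 0 and CDC25A ran from -0.28 to 0.0036, and for VP16_tracer_Dam against VP16_uninduced the count stayed at 0 and the median ran from -0.35 to -0.12. For VP16_uninduced against GFP_uninduced the count ran from 1 to 63 and the median from -0.033 to 0.062. The clone difference in the tracer response ran from -0.0025 to 1.28 for CCNE1 and from -0.24 to 2.52 for CCNE2. That in the Dam response ran from -0.99 to 1.26 in the median, from -0.21 to 0.071 for CCND1, from -2.15 to 2.20 for CCNE2, from -1.99 to 3.11 for CDKN2C and from -1.92 to 1.78 for E2F8. That in the combined response ran from -0.30 to 1.56 in the median, from -0.014 to 1.35 for CDC25A and from -0.25 to 3.55 for CDKN2C.

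In the fit of the VP16 clone alone with the replicate block, leaving out each VP16 library was chosen after seeing the data. Without VP16_uninduced 1, VP16_tracer 1, VP16_tracer_Dam 1, VP16_uninduced 2, VP16_tracer 2 and VP16_tracer_Dam 2 in turn, VP16_tracer against VP16_uninduced gave 22, 63, 755, 557, 144 and 813 genes, VP16_tracer_Dam against VP16_tracer 257, 12, 1, 243, 107 and 1022, and VP16_tracer_Dam against VP16_uninduced 277, 1581, 375, 1927, 1509 and 3082. The median of VP16_tracer against VP16_uninduced was -0.16 without VP16_tracer 1 and -0.015 without VP16_tracer 2, where E2F8 stood at 0.035. CDC25A stood at 0.041 for VP16_tracer_Dam against VP16_tracer without VP16_tracer_Dam 1, and the median of VP16_tracer_Dam against VP16_uninduced was -0.29 without VP16_tracer_Dam 2. With all 12 libraries the SE of the E2F2 changes from uninduced cells was 0.92 to 0.94, against 0.11 in the fit of the VP16 clone alone.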
